A study of Mus musculus with 14 samples.

Results

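Pklr and 9 other enzymes of red cell sugar metabolism were followed along the order of glycolysis in primitive erythroid precursors of the mouse yolk sac. The enzymes listed were Hk1, Hk2, Gpi1, Pfkl, Bpgm, Pgk1, Eno1, Pklr, Ldha and G6pdx, and every probe set that the platform annotation pairs with 1 of these symbols alone was taken. A probe set is a group of short probes for 1 transcript. Of the 10 genes, 7 were measured, on 15 of the 22626 probe sets tested, which name 12393 genes in all. Pklr, Bpgm and Pgk1 had 3 probe sets each, Hk1 and Pfkl 2, and Hk2 and Ldha 1. Gpi1, Eno1 and G6pdx are not analysed here. A probe set shared by Hk1 and 5 genes or pseudogenes of the Rpl17 kind was not used.

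The 14 samples were taken at embryonic day 9.5 and labelled as strain FVB/N. There were 3 samples labelled KLF1-/- KLF2-/-, titled 13 to 15, then 3 KLF1-/- samples, titled 5, 6 and 8, and 8 wild-type samples, titled 1 to 4 and 9 to 12. Both mutant groups lack KLF1, the zinc finger factor that drives much of the red cell programme, and the labels of the first add the loss of its relative KLF2. A replicate was a pool of 2 to 4 yolk sacs drawn from 2 litters. The sources used here do not say if pools had litters in common, so the p-values measure the spread between pools. Dams were heterozygous for KLF1 or for KLF1 and KLF2, embryos were genotyped by PCR, and no label names a deletion limited to red cells. Both mutant groups are set against the same wild-type arrays.

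Values are log2 expression, so a difference of 1 is a doubling of signal. Array medians ran from 6.55 to 6.66 and interquartile ranges from 2.31 to 3.12. Klf1 averaged 9.15 ± 0.53 on arrays labelled KLF1-/- KLF2-/-, 9.45 ± 0.39 on KLF1-/- arrays and 10.67 ± 0.63 on wild-type arrays (SD, n = 3, 3 and 8), with every mutant array below every wild-type one. That separation held for 0.106% of all probe sets. The Klf1 differences from wild type, −1.52 and −1.22 in that order, were not called at a limma adjusted p under 0.05. Klf2 averaged 6.69 ± 0.32 on the arrays labelled KLF1-/- KLF2-/-, 6.22 ± 0.28 on KLF1-/- arrays and 6.25 ± 0.25 on wild-type arrays, so it was not lower where its loss is labelled. The sources used here do not say if the probes of either gene lie in the deleted part, and the group is named by its label throughout. In wild type the erythroid markers Hbb-y, Hbb-bh1 and Gata1 averaged 14.42, 14.49 and 10.67, while Hba-a1, also on the erythroid list, was at 4.71. Markers of the neighbouring visceral endoderm were measured as well, with Afp at 13.62, Ttr at 13.82 and Apoa1 at 11.46, and Alb was at 6.52.

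Mature red cells have no mitochondria and live on glycolysis, which begins with the trapping of glucose by hexokinase and ends with pyruvate kinase and lactate dehydrogenase. A side branch made by bisphosphoglycerate mutase yields 2,3-bisphosphoglycerate, which loosens the hold of haemoglobin on oxygen, and the pentose phosphate pathway supplies the reducing power that protects the cell. Pklr encodes the liver and erythroid forms of pyruvate kinase, made from alternative promoters, and its deficiency is a known cause of haemolytic anaemia.

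The promoters of Pklr are shown because Pklr was the only member called, for the mean of the mutant groups against wild type. KLF1 is known to bind CACCC boxes and GATA1, its partner at many erythroid promoters, to bind AGATAA. RefSeq lists 2 start sites for the gene on the plus strand of chromosome 3 (GRCm38.p6), 481 bases apart, and each window holds 250 bases before and 50 bases from the start site. Capitals mark matches, on either strand, to the CACCC box, to the GATA motif AGATAA or to the E-box CACGTG, which factors such as Myc bind. These motifs do not overlap each other. The first window lies at chr3:89135892-89136191 and the second at chr3:89136373-89136672.
Pklr window 1: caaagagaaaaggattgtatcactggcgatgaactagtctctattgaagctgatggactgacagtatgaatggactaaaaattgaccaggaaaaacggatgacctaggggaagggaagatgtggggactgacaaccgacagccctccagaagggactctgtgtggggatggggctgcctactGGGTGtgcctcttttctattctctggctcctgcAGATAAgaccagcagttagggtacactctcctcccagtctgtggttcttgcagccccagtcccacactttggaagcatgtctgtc
Pklr window 2: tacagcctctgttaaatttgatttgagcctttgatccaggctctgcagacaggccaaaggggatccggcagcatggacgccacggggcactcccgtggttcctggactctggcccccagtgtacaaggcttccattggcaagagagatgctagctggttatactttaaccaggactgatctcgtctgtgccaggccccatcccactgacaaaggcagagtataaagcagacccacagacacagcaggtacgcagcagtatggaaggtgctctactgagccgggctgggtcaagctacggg
The upstream window holds a CACCC box on the minus strand, read as GGGTG from base −68 relative to the start site, and an AGATAA from base −35. The downstream window holds neither, and no CACGTG. Among all 32851 promoter windows of this length in the table, the CACCC box is in 57.5%, the GATA motif in 11.2%, the E-box in 7.15% and the CACCC box together with the GATA motif in 5.43%. All 10 listed genes matched, with 15 windows. The CACCC box was in 7 of these, the GATA motif in 1 and the E-box in 1, a Ldha window that holds it at 2 places. The upstream Pklr window was the 1 of the 15 with both the CACCC box and the GATA motif. A match says only that the letters are there.

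Pklr fell in the arrays that lack KLF1. On its brightest probe set, 1438711_at, the arrays labelled KLF1-/- KLF2-/- gave 7.30, 6.80 and 7.55 and the KLF1-/- arrays gave 7.94, 7.02 and 7.01. The wild-type arrays ranged from 8.26 to 9.19 with a median of 8.54. All 6 mutant arrays lay below all 8 wild-type arrays, and the closest of them, KLF1-/- replicate 5 at 7.94, was still under the lowest wild-type array. The group means were 7.21 ± 0.38 in the arrays labelled KLF1-/- KLF2-/- (SD, n = 3), 7.32 ± 0.53 in KLF1-/- (n = 3) and 8.63 ± 0.28 in wild type (n = 8). In bulk RNA such as this, fewer cells of a type and less RNA per cell cannot be told apart.

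The mean of the mutant groups was 2.56-fold below wild type (log2 difference −1.36, SE 0.180, limma adjusted p = 0.00994 over all probe sets). This was the only call among the 15 probe sets of the enzymes in that comparison, in which 0.0707% of all probe sets were called. An unadjusted p under 0.05 was seen for 2 of the 15, both of Pklr, against 2.76% of all probe sets. For the arrays labelled KLF1-/- KLF2-/- alone the log2 difference from wild type was −1.41 (SE 0.226, 2.66-fold, limma adjusted p = 0.0586), past the 0.05 threshold when 1 probe set per gene was tested (adjusted p = 0.0319, where 0.0646% of genes were called). For KLF1-/- alone it was −1.30 (SE 0.226, 2.47-fold, limma adjusted p = 0.132). With 1 probe set per gene the adjusted p was 0.0846, and 0.0403% of genes were called. By p, Pklr ranked 6 of the 22626 probe sets for the mean of the mutant groups, 7 for the arrays labelled KLF1-/- KLF2-/- and 8 for KLF1-/-.

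Neither comparison of a single mutant group with wild type called an enzyme over all probe sets. In the comparison of arrays labelled KLF1-/- KLF2-/- with wild type, 0 of 15 probe sets were called by limma, where 0.0221% of all were called, and 1 had an unadjusted p under 0.05, as did 2.11% of all. In KLF1-/- 0 of 15 were called, where 0.0265% of all were called, and 2 had an unadjusted p under 0.05, as did 1.92% of all. With each array left out in turn, Pklr passed in 1 of 14 fits for the arrays labelled KLF1-/- KLF2-/- (adjusted p = 0.0199 to 0.611) and in 1 of 14 for KLF1-/- (adjusted p = 0.0433 to 0.944). In both comparisons that was the fit without KLF1-/- replicate 5, where the differences were −1.41 and −1.61.

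Between the mutant groups, Pklr differed by −0.11 (arrays labelled KLF1-/- KLF2-/- minus KLF1-/-, SE 0.272, 95% confidence interval −0.69 to 0.47, limma adjusted p = 1.00). Their arrays overlapped on all 3 Pklr probe sets. The interval leaves room for a difference in either direction, so the comparison does not show that the groups have the same level. Of the 15 probe sets 0 were called between the mutant groups and 0 had an unadjusted p under 0.05. Over all probe sets 0 were called as well, 0% of the total, with 142 (0.628%) at an unadjusted p under 0.05.

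**Figure D1:**
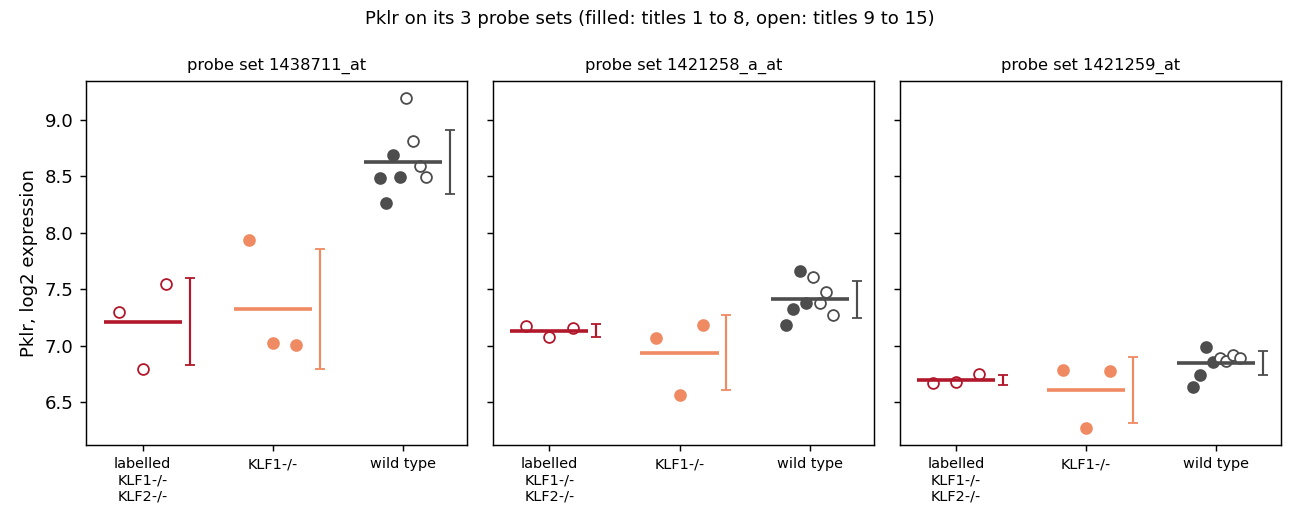
Pklr log2 expression on its 3 probe sets, 1 point per array, with group means as horizontal lines and SD as error bars (n = 3 labelled KLF1-/- KLF2-/-, 3 KLF1-/- and 8 wild type). On 1438711_at all 6 mutant points sit at or below 7.94 and all wild-type points at or above 8.26, while on the other probe sets the groups lie closer together.

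The other Pklr probe sets gave smaller differences. On 1421258_a_at the arrays labelled KLF1-/- KLF2-/- gave 7.17, 7.07 and 7.16, the KLF1-/- arrays 7.07, 6.56 and 7.19, and the wild-type arrays 7.19 to 7.66 with a median of 7.38. The arrays labelled KLF1-/- KLF2-/- all lay below wild type there, by a narrow margin, and the KLF1-/- arrays met the lowest wild-type array at 7.19. The log2 differences were −0.28 (unadjusted p = 0.0613) for the arrays labelled KLF1-/- KLF2-/- and −0.47 (unadjusted p = 0.00368) for KLF1-/-, and the mean of both was −0.37 (SE 0.108, limma adjusted p = 0.697).

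On 1421259_at the means were 6.70 ± 0.04 in arrays labelled KLF1-/- KLF2-/-, 6.61 ± 0.29 in KLF1-/- and 6.85 ± 0.11 in wild type. The differences from wild type were −0.15 and −0.24 in the order given, and neither was called. All 3 probe sets therefore had the same sign in both mutant groups, with 1 of 3 called in the comparison of both mutant groups with wild type. The sources used here do not say which Pklr transcript each probe set reads.

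Complete separation from wild type was rare. Among all probe sets, 0.305% had every array labelled KLF1-/- KLF2-/- below every wild-type array, against 2 of the 15 enzyme probe sets, both of Pklr. In KLF1-/- 0.23% did so, against 1 of the 15, and with both mutant groups together 0.106%, against 1 of the 15. No enzyme probe set lay wholly above wild type in arrays labelled KLF1-/- KLF2-/-, where 0.393% of all did, or in KLF1-/-, where 0.283% did.

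The hexokinases, which phosphorylate incoming glucose, did not pass the test. Hk1 is the main hexokinase of red cells and its brightest probe set, 1437974_a_at, gave 9.26, 9.78 and 9.03 on arrays labelled KLF1-/- KLF2-/-, 9.33, 9.41 and 9.40 on KLF1-/- arrays, and 9.07 to 10.12 in wild type with a median of 9.42. The 3 groups overlapped, with the KLF1-/- arrays close to the middle of the wild-type range. The differences from wild type were −0.09 (95% confidence interval −0.52 to 0.35) for the arrays labelled KLF1-/- KLF2-/- and −0.06 (−0.50 to 0.38) for KLF1-/-. The second Hk1 probe set, 1420901_a_at, was at 5.82 ± 0.39 in arrays labelled KLF1-/- KLF2-/-, 5.93 ± 0.20 in KLF1-/- and 6.05 ± 0.33 in wild type.

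Hk2, the inducible hexokinase of muscle and growing cells, gave 9.25, 9.21 and 9.89 on arrays labelled KLF1-/- KLF2-/- and 8.997, 9.56 and 9.68 on KLF1-/- arrays. Wild type ran from 9.26 to 9.94 with a median of 9.75. Some mutant arrays lay under the lowest wild-type array and others within the wild-type range, and the differences were −0.22 (95% confidence interval −0.64 to 0.20) for the arrays labelled KLF1-/- KLF2-/- and −0.25 (−0.67 to 0.17) for KLF1-/-.

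Pfkl is the liver-type subunit of phosphofructokinase, the enzyme that commits sugar to glycolysis, and red cells combine it with the muscle-type subunit. Its brightest probe set, 1439148_a_at, varied widely within groups, with 7.05, 8.50 and 7.49 on arrays labelled KLF1-/- KLF2-/-, 7.61, 8.56 and 8.10 on KLF1-/- arrays, and 7.28 to 8.52 in wild type with a median of 7.71. The arrays labelled KLF1-/- KLF2-/- alone spanned nearly the whole range of the other groups. The differences from wild type were −0.14 (95% confidence interval −0.82 to 0.54) for the arrays labelled KLF1-/- KLF2-/- and 0.27 (−0.40 to 0.95) for KLF1-/-. The second probe set, 1450269_a_at, was at 7.16 ± 0.31 in arrays labelled KLF1-/- KLF2-/-, 7.18 ± 0.17 in KLF1-/- and 7.24 ± 0.23 in wild type.

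**Figure D2:**
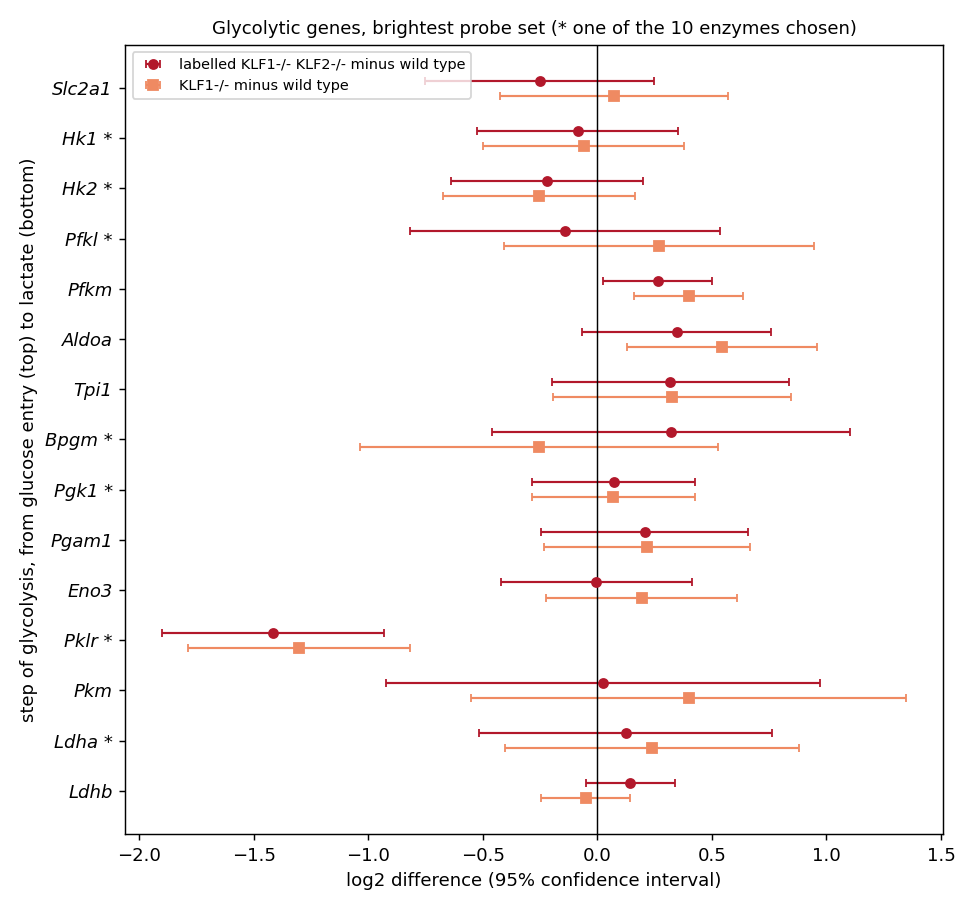
Log2 difference from wild type, with its 95% confidence interval, for the brightest probe set of listed enzymes, the transporter Slc2a1 and some further enzymes. They stand in pathway order from glucose entry (top) to lactate (bottom), for arrays labelled KLF1-/- KLF2-/- (circles) and KLF1-/- (squares). Pklr stands at −1.41 and −1.30 with intervals that end below 0, and the intervals of the other listed enzymes, marked with an asterisk, all include 0. Among the genes without an asterisk, the intervals of Pfkm in both groups and of Aldoa in KLF1-/- lie above 0.

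Bpgm, the mutase that makes 2,3-bisphosphoglycerate, had the largest spread within wild type among the enzymes. On its brightest probe set, 1415865_s_at, arrays labelled KLF1-/- KLF2-/- gave 11.53, 11.73 and 11.13, KLF1-/- arrays 10.93, 11.34 and 10.38, and wild-type arrays 10.40 to 12.23 with a median of 11.05. The mutant arrays fell inside the wild-type range except for KLF1-/- replicate 8, at 10.38, just under it. The differences from wild type were 0.32 (95% confidence interval −0.46 to 1.10) for arrays labelled KLF1-/- KLF2-/- and −0.25 (−1.03 to 0.53) for KLF1-/-.

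On the Bpgm probe set 1415864_at the arrays labelled KLF1-/- KLF2-/- gave 9.32, 9.84 and 9.98 and the KLF1-/- arrays 8.31, 9.20 and 8.96. The first group lay wholly above the second, a separation that 1.87% of all probe sets had in this direction, and the difference between them was 0.89 (SE 0.832, limma adjusted p = 1.00). Wild-type arrays ran from 7.24 to 11.003 with a median of 9.87 and an SD of 1.40, wider than either mutant group. The third probe set, 1448119_at, averaged 7.93 ± 0.46 in arrays labelled KLF1-/- KLF2-/-, 7.66 ± 0.41 in KLF1-/- and 7.76 ± 0.39 in wild type.

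On 1415865_s_at and 1415864_at Bpgm also differed within wild type along the numbering of the titles, at an unadjusted p alone. Titles 1 to 8 hold the KLF1-/- arrays and 4 wild-type arrays, and titles 9 to 15 hold the arrays labelled KLF1-/- KLF2-/- and the other 4 wild-type arrays. The labels do not say that these runs of numbers are batches. Within wild type, arrays 9 to 12 averaged 11.59 and arrays 1 to 4 averaged 10.68 on 1415865_s_at, a difference of 0.91 (unadjusted p = 0.0164, limma adjusted p = 0.646). On 1415864_at the corresponding means were 10.40 and 8.53, a difference of 1.88 (unadjusted p = 0.0140, limma adjusted p = 0.644). The third probe set, 1448119_at, differed by 0.29 (unadjusted p = 0.257, limma adjusted p = 0.837). The share of all probe sets that differed in this way was not computed.

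With the number run as a term in the fit, the Bpgm differences from wild type on 1415865_s_at turned to −0.13 for arrays labelled KLF1-/- KLF2-/- and 0.20 for KLF1-/-. On 1415864_at they turned from 0.25 and −0.64 without the run to −0.69 and 0.30 with it, in the same order. Between the mutant groups (arrays labelled KLF1-/- KLF2-/- minus KLF1-/-) the Bpgm difference on 1415865_s_at was −0.34 with the run in the fit (SE 0.462, limma adjusted p = 1.00) and 0.58 without it. On 1415864_at it was −0.99 with the run (SE 0.820, limma adjusted p = 1.00) and 0.89 without it, so the sign depended on this term on both probe sets. For Pklr the wild-type arrays 9 to 12 exceeded arrays 1 to 4 by 0.29 (unadjusted p = 0.122). With the run in the fit Pklr kept its sign against wild type, at −1.56 for arrays labelled KLF1-/- KLF2-/- (adjusted p = 0.0799) and −1.16 for KLF1-/- (adjusted p = 0.532), and between the mutant groups it was −0.40 (SE 0.352, unadjusted p = 0.276).

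**Figure D3:**
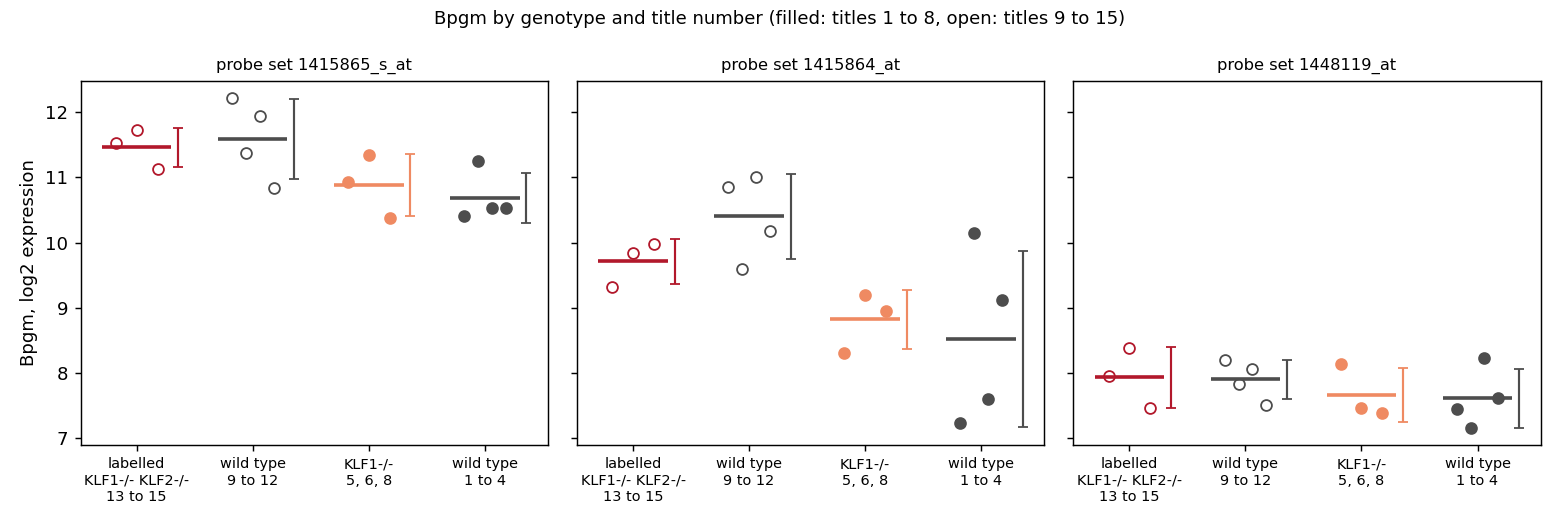
Bpgm log2 expression on its 3 probe sets, 1 point per array, with means as lines and SD as error bars. Each mutant group stands left of the 4 wild-type arrays of its own number run, and on 1415865_s_at and 1415864_at the later-numbered wild-type arrays average 0.91 and 1.88 above the earlier-numbered ones.

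Pgk1, phosphoglycerate kinase, makes the first ATP of the pathway. Its brightest probe set, 1438640_x_at, gave 13.07, 13.11 and 12.75 on arrays labelled KLF1-/- KLF2-/-, 12.74, 13.27 and 12.92 on KLF1-/- arrays, and 12.46 to 13.24 in wild type with a median of 12.97. The groups overlapped almost fully, and both differences from wild type were 0.07 with 95% confidence intervals of −0.29 to 0.43. The other Pgk1 probe sets differed from wild type by 0.09 and 0.20 in arrays labelled KLF1-/- KLF2-/- and by 0.15 and 0.22 in KLF1-/-, none of them called.

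Ldha, which turns pyruvate into lactate and renews NAD+, gave 11.74, 12.14 and 11.23 on arrays labelled KLF1-/- KLF2-/-, 11.45, 12.35 and 11.66 on KLF1-/- arrays, and 10.74 to 12.26 in wild type with a median of 11.60. The mutant arrays lay within the wild-type range except for KLF1-/- replicate 6, at 12.35, just above it. The differences were 0.12 (95% confidence interval −0.52 to 0.76) for arrays labelled KLF1-/- KLF2-/- and 0.24 (−0.40 to 0.88) for KLF1-/-.

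Counted by gene on the brightest probe set, 3 of the 7 enzymes were higher and 4 lower than wild type in arrays labelled KLF1-/- KLF2-/-, with a median difference of −0.09, and the same counts held in KLF1-/-, with a median of −0.06. Over all 12393 genes the medians were 0.0067 and 0.0070 in that order. Apart from Pklr, the difference from wild type furthest from 0 on a brightest probe set was 0.32, that of Bpgm in arrays labelled KLF1-/- KLF2-/-.

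The spread of several enzymes followed the width of the array's own value distribution. Over the 14 arrays Ldha went with the interquartile range of the array, with Pearson r = 0.880 (permutation p = 4e-05, adjusted p = 0.0006 over 15 relations) and Spearman rho = 0.895 (permutation p = 7e-05, adjusted p = 0.000525). With KLF1-/- replicate 6 and wild-type replicate 12 left out, the 2 arrays whose range was farthest from the median, r was 0.845. Within titles 1 to 8 it was 0.838 and within titles 9 to 15 it was 0.961. Pgk1 on 1417864_at did the same, with r = 0.849 (permutation p = 0.00011, adjusted p = 0.000825) and rho = 0.916 (permutation p = 3e-05, adjusted p = 0.00045), at 0.833 without these arrays and 0.810 and 0.973 within the runs. The range and the signal come from the same array, so the measures are not independent. By mean signal Ldha and this Pgk1 probe set stand at percentiles 97.3 and 96.5 of all probe sets. Probe sets this bright rise with a wider range partly by construction, so these p-values say little about the enzymes. The dim Hk1 probe set 1420901_a_at went the other way, with r = −0.740 (permutation p = 0.00244, adjusted p = 0.00732). The share of all probe sets with such a relation was not computed.

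The Pklr probe sets differed from each other in this relation. On 1438711_at r was −0.277 (permutation p = 0.34, adjusted p = 0.425) and rho −0.2 (permutation p = 0.496, adjusted p = 0.591), with r = 0.0144 when these 2 arrays were left out, and −0.455 and −0.0969 within the runs. For 1421258_a_at r was −0.448 (permutation p = 0.109, adjusted p = 0.149) and rho −0.143 (permutation p = 0.626, adjusted p = 0.671). Its r was 0.00522 without these 2 arrays, and −0.708 and 0.196 within the runs. On 1421259_at r was −0.679 (permutation p = 0.00861, adjusted p = 0.0184) and rho −0.415 (permutation p = 0.142, adjusted p = 0.213). With the same 2 arrays left out r was −0.303, and within the runs −0.863 and −0.213, so the relation rested on those arrays. The interquartile ranges of the groups overlapped, at 2.38 to 2.84 in arrays labelled KLF1-/- KLF2-/-, 2.45 to 3.12 in KLF1-/- and 2.31 to 2.89 in wild type.

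**Figure D4:**
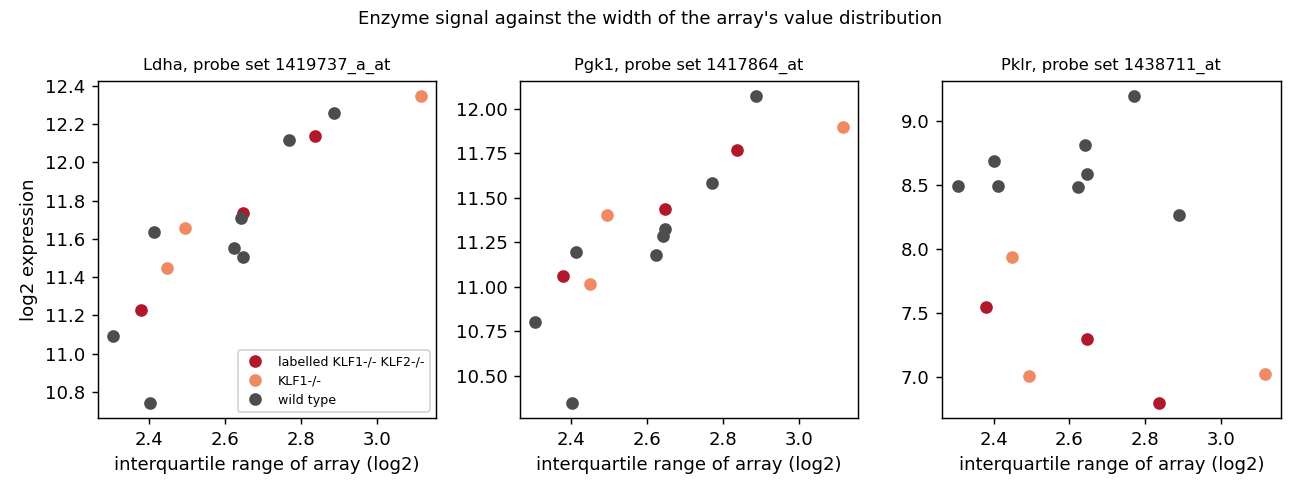
Log2 expression of Ldha, Pgk1 (1417864_at) and Pklr (1438711_at) against the interquartile range of all probe sets on the array (log2), 1 point per array, coloured by genotype. Ldha and Pgk1 climb with the range (r = 0.880 and 0.849), while on Pklr the mutant points lie below all wild-type points.

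The remaining steps of glycolysis were read from 18 further enzymes and tissue isozymes, of which 14 were measured on 25 probe sets. None was called in either comparison, where 0.0646% of all genes were called for arrays labelled KLF1-/- KLF2-/- and 0.0403% for KLF1-/-. With shares this low, the absence of calls in a list this short says little about its genes. In arrays labelled KLF1-/- KLF2-/- 10 of the 14 were higher and 4 lower than wild type, with a median difference of 0.11, and in KLF1-/- 10 were higher and 4 lower, with a median of 0.15. Pfkm, the muscle-type phosphofructokinase subunit, averaged 8.43 ± 0.09 in arrays labelled KLF1-/- KLF2-/-, 8.57 ± 0.09 in KLF1-/- and 8.17 ± 0.16 in wild type. Its differences were 0.26 (unadjusted p = 0.0365) and 0.40 (unadjusted p = 0.00354) with limma adjusted p of 1.00 in both.

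Aldoa, the aldolase of muscle and red cells, averaged 11.20 ± 0.42 in arrays labelled KLF1-/- KLF2-/-, 11.40 ± 0.21 in KLF1-/- and 10.85 ± 0.28 in wild type, with differences of 0.35 and 0.54 that were not called. For Pfkm and Aldoa every KLF1-/- array lay above every wild-type array, which held for 0.315% of all genes. Pkm, the other pyruvate kinase gene, averaged 7.67 ± 0.86 in arrays labelled KLF1-/- KLF2-/-, 8.04 ± 0.68 in KLF1-/- and 7.64 ± 0.70 in wild type. Its differences were 0.02 (95% confidence interval −0.92 to 0.97) and 0.40 (−0.55 to 1.35), intervals wide enough to hold a change of either sign.

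The pentose phosphate enzymes listed beside G6pdx were all measured, 7 of 7, and none was called, against 0.0646% and 0.0403% of all genes. In arrays labelled KLF1-/- KLF2-/- 5 were higher and 2 lower, with a median of 0.09, and in KLF1-/- 6 were higher and 1 lower, with a median of 0.15. Taldo1, transaldolase, averaged 10.35 ± 0.82 in arrays labelled KLF1-/- KLF2-/-, 10.09 ± 0.56 in KLF1-/- and 9.40 ± 0.61 in wild type. Its differences were 0.95 and 0.68 (limma adjusted p of 1.00 in both). Tkt, transketolase, differed by 0.28 in arrays labelled KLF1-/- KLF2-/-, and Pgd, the enzyme that follows G6pdx in making NADPH, by 0.35 in KLF1-/-.

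Membrane transporters of glucose and lactate were likewise all measured, 7 of 7, with 0 called, against 0.0646% and 0.0403% of all genes. In arrays labelled KLF1-/- KLF2-/- 2 were higher and 5 lower, with a median of −0.15, and in KLF1-/- 5 were higher and 2 lower, with a median of 0.07. Slc2a1, the GLUT1 glucose transporter, averaged 12.34 ± 0.10 in arrays labelled KLF1-/- KLF2-/- and 12.59 ± 0.43 in wild type, a difference of −0.25, and Slc2a4, the insulin-responsive GLUT4, differed by −0.21. In KLF1-/- Slc16a1, the MCT1 lactate transporter, differed by 0.48 (unadjusted p = 0.248) and Slc2a3, the GLUT3 transporter, by 0.24 (unadjusted p = 0.250).

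Of 11 regulators of glycolytic rate 8 were measured and 0 called, against 0.0646% and 0.0403% of all genes. In arrays labelled KLF1-/- KLF2-/- 5 were higher and 3 lower, with a median of 0.03, and in KLF1-/- 4 were higher and 4 lower, with a median of −0.01. Mlxipl, the glucose-sensing factor ChREBP, differed by −0.18 and Pdk4, a kinase that restrains pyruvate dehydrogenase, by 0.10 in arrays labelled KLF1-/- KLF2-/-. Pdk1, another such kinase, differed by −0.44 and Pfkfb3, which makes the activator of phosphofructokinase, by 0.14 in KLF1-/-.

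The genes whose pattern over the 14 arrays was most like that of Pklr were Icam4, Kcnn4, Asb17, Dnaja4 and Dmtn, taken as the highest Pearson correlations among all genes. Icam4, the red cell surface protein of the LW blood group, had r = 0.942, and Kcnn4, the Gardos potassium channel of red cells, r = 0.937. Asb17 had r = 0.911, Dnaja4, a DNAJ co-chaperone, r = 0.899, and Dmtn, the membrane skeleton protein dematin, r = 0.895. They carry no p because they were chosen as the highest. Without the arrays farthest from the Pklr median, replicate 14 labelled KLF1-/- KLF2-/- and KLF1-/- replicate 8, r was 0.840 to 0.962 over the 5 genes. With genotype means removed it was 0.436 to 0.699, below the values with the genotype step left in.

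Icam4 differed from wild type by −1.63 in arrays labelled KLF1-/- KLF2-/- (limma adjusted p = 0.0586) and by −1.69 in KLF1-/- (adjusted p = 0.0477). Kcnn4 differed by −1.80 (adjusted p = 0.0221) and −1.90 (adjusted p = 0.00868), and Asb17 by −2.31 (adjusted p = 0.0138) and −2.47 (adjusted p = 0.00519), in the same order. Dnaja4 and Dmtn differed by −0.99 and −1.15 in arrays labelled KLF1-/- KLF2-/- and by −0.96 and −1.11 in KLF1-/-, none of them called.

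The other enzymes were not among the genes alike to Pklr. Hk2 had r = 0.213 with it over the 14 arrays and Hk1 r = 0.168. Bpgm had r = 0.0614, Pfkl −0.174, Pgk1 −0.288 and Ldha −0.306. Among themselves several of these enzymes went together more than with Pklr, with r = 0.767 between Pfkl and Ldha, 0.699 between Hk1 and Bpgm, 0.675 between Hk1 and Pfkl and 0.612 between Pgk1 and Ldha. The arrays share platform, amplification and the width of their value distribution, so these correlations are a description only.

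**Figure D5:**
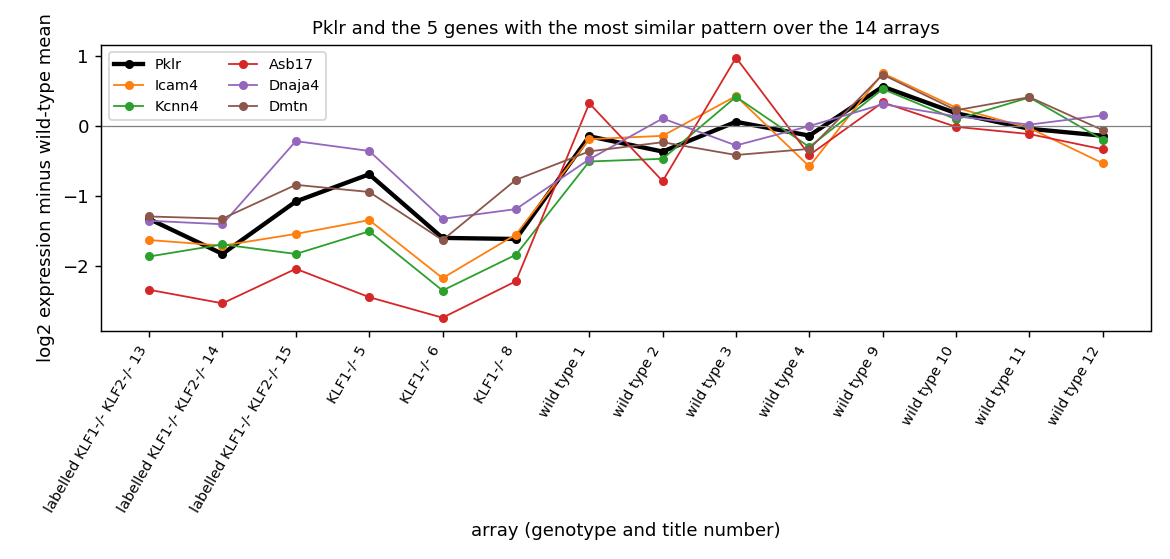
Log2 expression minus the wild-type mean of Pklr (black) and the 5 genes most like it, for each of the 14 arrays ordered from labelled KLF1-/- KLF2-/- to KLF1-/- to wild type. For all of these genes but Dnaja4 the mutant points lie wholly below the wild-type points. Dnaja4 lies within the wild-type range on KLF1-/- replicate 5 and on replicate 15 labelled KLF1-/- KLF2-/-.

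Markers of other yolk sac cells were read beside these results. The mean level of 15 measured visceral endoderm and liver-type markers, of 16 listed, ran from 10.1 to 10.3 in arrays labelled KLF1-/- KLF2-/-, 10.2 to 10.7 in KLF1-/- and 9.63 to 11.1 in wild type. These ranges overlapped between the mutant groups and wild type. Relative to wild type 6 of them were higher and 9 lower in arrays labelled KLF1-/- KLF2-/-, and 11 higher and 4 lower in KLF1-/-.

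The mean of 10 measured erythroid markers, of 12 listed, ran from 10.3 to 11.1 in arrays labelled KLF1-/- KLF2-/-, 10.5 to 10.7 in KLF1-/- and 10.5 to 11.5 in wild type. Of these 6 were higher and 4 lower in arrays labelled KLF1-/- KLF2-/-, and 1 higher and 9 lower in KLF1-/-. Their differences ran from −1.53 to 0.47 in arrays labelled KLF1-/- KLF2-/- and from −1.49 to 0.43 in KLF1-/-. None of these markers was called, against 0.0646% and 0.0403% of all genes. In arrays labelled KLF1-/- KLF2-/- all 10 mesenchyme markers were higher than in wild type (median 0.38). So were 8 of 9 megakaryocyte and platelet markers (median 0.40). In that group the mean of the mesenchyme list ran from 9.56 to 9.88, against 8.88 to 9.98 in wild type, so these ranges overlapped. In KLF1-/- 6 mesenchyme markers were higher and 4 lower (median 0.04), and 7 megakaryocyte and platelet markers were higher and 2 lower (median 0.25). Of 10 endothelial markers 7 were higher and 3 lower in arrays labelled KLF1-/- KLF2-/-, and 8 higher and 2 lower in KLF1-/-. Among all genes 52.1% were higher than wild type in each mutant group. The mean of the megakaryocyte and platelet list ran from 7.54 to 7.87 in arrays labelled KLF1-/- KLF2-/-, 7.36 to 7.52 in KLF1-/- and 6.94 to 7.34 in wild type, without overlap between mutants and wild type. The mean of 10 measured macrophage markers, of 11 listed, ran from 7.09 to 7.17 in arrays labelled KLF1-/- KLF2-/-, 6.68 to 6.86 in KLF1-/- and 6.59 to 7.06 in wild type. On this list only the arrays labelled KLF1-/- KLF2-/- lay wholly above wild type. The part of these cells in the Pklr result was not tested. The log2 difference between the 3′ and 5′ Gapdh control signals, a measure of RNA length, ran from 3.94 to 5.20 in arrays labelled KLF1-/- KLF2-/-, 4.34 to 5.06 in KLF1-/- and 3.90 to 5.28 in wild type, so the ranges overlapped.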

How the data were processed

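The authors deposited log2 expression values per probe set of Affymetrix mouse arrays, 1 array per sample. Per the submitters' processing notes, affy, GCOS, limma and RMA were used, listed without roles or versions. RMA in general gives log2 values after background correction and normalization between arrays, and compresses weak signals. Per the labels' protocols, erythroid cells were laser-captured from 8 µm sections, and the labelling started from 10 to 20 ng of RNA with a T7-oligo(dT) primer over 2 cycles, which favours 3′ ends. Arrays have no counting depth, so their number limits precision.

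No further normalization was applied to the deposited log2 values. Affymetrix controls (64 of 22690 rows) were left out. Of the other probe sets, 20380 had 1 gene symbol in the platform annotation, 691 several and 1555 none. A mean per genotype was estimated over the 14 arrays by limma 3.58.1 under R 4.3.3, with lmFit and eBayes and two-sided tests. Adjustment was by Benjamini-Hochberg over all 22626 probe sets with a call at 0.05. An adjusted p is limma's unless it stands with a permutation p, which is two-sided and used 100000 permutations. Figures were drawn with Python 3.11.15 and matplotlib 3.10.9. Promoter sequences are RefSeq's, of GRCm38.p6, and the expression values carry no build.

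Every probe set of an enzyme is accounted for, the brightest over the 14 arrays leading, with per-array values where groups do not overlap. Of each other list of enzymes, transporters or regulators the called genes, or the 2 with the smallest p when none is called, are named. The 5 genes best correlated with Pklr are named as well. Marker lists are summarised, with no marker named for its difference from wild type. Pkm was named after its values were seen, as were the further per-array values. P-values of list genes come from the fit with 1 probe set per gene. The enzymes, lists and tests were chosen with earlier results of these data known. In simulated data of 22626 probe sets, changes of −2, −1, 1 and 2 were planted together, each in 50 probe sets. Of those changed by −2 and −1, 98% and 72% were called for arrays labelled KLF1-/- KLF2-/- against wild type. For KLF1-/- the shares were 96% and 70%, and for a change of 1 they were 72% and 62% in the same order. The noise was independent between probe sets, without array or run effects. Far more probe sets were changed there than were called in the data (5 and 6), which eases the adjusted threshold. The shares therefore do not give the power of the comparisons made here.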

Additional observations from a re-analysis of the deposited data

How the results depend on the processing

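Pklr on 1438711_at stayed below wild type under all alternatives run, in each mutant group and in their mean, whose adjusted p was below 0.05 in all 25 alternatives (highest 0.0405). For arrays labelled KLF1-/- KLF2-/- alone Pklr passed the threshold in 8 of 27 alternatives (highest adjusted p = 0.611). For KLF1-/- alone it passed in 2 of 27 (highest adjusted p = 0.972). A fit with only the arrays of the mutant group's own number run did not pass in either group. For arrays labelled KLF1-/- KLF2-/- Pklr passed, at −1.41, with 1 probe set per gene (adjusted p = 0.0319), with dim probe sets left out (0.0358) and with a variance trend (0.0441). At −1.41 it passed as well with only the groups compared (0.0466) and with array weights (2.67e-06). It also passed at −1.48 with array weights under a strong prior (0.0137) and at −1.56 with 1 probe set per gene and the number run in the fit (0.0468), both chosen after seeing the data. Each of these settings gave 1 enzyme probe set called where 0 were called as reported, except array weights, which called 8. In KLF1-/- array weights gave Pklr −1.67 (adjusted p = 3.54e-06) and 5 calls, between the mutant groups 8 calls, and for the mean of the mutant groups 3 calls where 1 is reported. The array weight estimate did not converge and gave 1 array, replicate 13 labelled KLF1-/- KLF2-/-, a weight of 93.0, so its calls are not relied on.

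Between the mutant groups the Pklr difference of −0.11 turned to 0.058 with the mean of the gene's probe sets, to 0.26 with array weights (adjusted p = 0.00610), to 0.20 without KLF1-/- replicate 5 and to 0.10 without replicate 14 labelled KLF1-/- KLF2-/-. It was −0.40 with the number run in the fit, not called. The cause was not tested. With the mean of a gene's probe sets the Pklr differences from wild type were −0.61 for arrays labelled KLF1-/- KLF2-/-, −0.67 for KLF1-/- and −0.64 for their mean (adjusted p = 0.0405), since the other probe sets moved less.

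With each array left out in turn Pklr ranged from −1.58 to −1.20 in arrays labelled KLF1-/- KLF2-/- (adjusted p = 0.0199 to 0.611), from −1.61 to −1.15 in KLF1-/- (0.0433 to 0.944), from −0.28 to 0.20 between the mutant groups, and from −1.51 to −1.25 for the mean of the mutant groups, called in 14 of 14. Enzyme probe sets called ranged from 0 to 1 in each single mutant group, the 1 arising without KLF1-/- replicate 5. Over all probe sets and settings other than array weights, the numbers called ranged from 1 to 16 for arrays labelled KLF1-/- KLF2-/- (5 reported), from 1 to 9 for KLF1-/- (6), from 0 to 1 between the mutant groups (0) and from 6 to 31 for the mean of the mutant groups (16). With array weights they were 4704, 1494, 13656 and 716 in that order. For the other enzyme probe sets 1370 values were computed, of which 1352 moved by less than 1 SD within groups, 110 changed sign and 20 were called, all 20 under array weights. No paired analysis was possible because the title numbers are not shared between groups. The number of arrays, 3 in each mutant group, limits the precision.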
